A study of Mus musculus with 10 samples.

Results

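The SLAM family receptors are a group of surface receptors of blood cells, described here by 7 mouse genes: Slamf1 (ENSMUSG00000015316), Slamf7 (ENSMUSG00000038179), Slamf8 (ENSMUSG00000053318), Slamf9 (ENSMUSG00000026548), Cd48 (ENSMUSG00000015355), Cd84 (ENSMUSG00000038147) and Ly9 (ENSMUSG00000004707). The 7 genes were taken by their gene identifiers from deposited gene tables that each list 41813 genes, and all 7 were detected at a level that could be tested. Slamf6 and Cd244a, the other family genes considered, are described beside them. The series profiled RNA and chromatin accessibility in dendritic cells grown from mouse bone marrow, labelled CD11c+ MHCIIhigh. In the design text every culture was given LPS (lipopolysaccharide, the bacterial trigger of TLR4), and only 1 set was loaded with the ovalbumin peptide OVA323-339. Both sets then spent 24 h with CD4+ OT-II T cells, which carry a transgenic receptor for that peptide on MHC class II. RNA was analysed in 3 libraries titled activated and 3 titled non-activated; 4 samples of open chromatin were not analysed here.

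The sample labels do not describe the groups as the design text does. In the labels LPS is what separates activated from non-activated cells, while in the design text both had LPS and the peptide separates them. The terms activated and non-activated therefore follow the sample titles, and which agent separates the groups cannot be told apart from the labels. No genotype, strain or age of the animals that gave the marrow is given. Whether replicates came from separate animals or cultures is not stated either, and p-values then measure only how far these samples spread, which may be technical.

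SLAM receptors are built from immunoglobulin-like domains outside the cell, and most of them bind a copy of themselves on a neighbouring cell; CD48 instead binds CD2 and 2B4, the product of Cd244a. Several carry tyrosine motifs inside the cell that recruit small SH2 adaptors of the SAP family or, when adaptors are absent, inhibitory phosphatases. Of these adaptors, SAP itself brings in the kinase FYN. In dendritic cells and macrophages the receptors are known for roles at the contact with T cells, in phagocytosis and in the control of the phagosome oxidase.

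The libraries held between 21338012 and 27404937 expected counts, with 18803 to 19604 genes above 0, and mitochondrial RNA took 1.80% to 2.57% of counts. Levels are given as CPM (counts scaled by library size and TMM factors), and between genes as TPM, which also allows for transcript length. Between libraries of a group the common biological coefficient of variation was 16.9%, above counting error for all but low genes. The dendritic cell label was matched by high Cd74, H2-Ab1 and Itgax: the 10 dendritic cell markers summed to between 12754 and 16480 CPM in the 6 libraries, lowest in activated replicate 1. Macrophage and monocyte markers summed to 2273 to 2968 in activated and 2042 to 2671 CPM in non-activated libraries. Among them Cd14 (means of 1162 and 1065 CPM), Adgre1 (655 and 576 CPM) and Csf1r (530 and 554 CPM) each lay above Itgax in every library. The rest of that list lay below Itgax. The 2 replicate 1 libraries stood apart from the rest. Trac, a T-cell receptor constant gene, stood at 7413 in activated and 7438 CPM in non-activated replicate 1, against 2.73 to 27.8 CPM in the other 4 libraries, and Trbc2 at 107 and 106 CPM against 0.50 to 1.88 CPM. Cd3e, which T cells also need for their receptor, was at only 0.15 to 1.89 CPM in the 6 libraries, and its highest value was in activated replicate 1. Each receptor's fold change was therefore also computed without both replicate 1 libraries.

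Activated cells had more RNA of 4 of the 7 receptor genes. Slamf1, Slamf7, Slamf9 and Cd48 passed edgeR's quasi-likelihood test with Benjamini-Hochberg adjustment over the 13946 genes tested (threshold 0.05), and Slamf8, Cd84 and Ly9 did not pass. By edgeR 0 of the 7 were lower, also at an unadjusted p under 0.05, and 0 with DESeq2, which called Slamf8 higher as well. Among all genes tested, 15.9% were higher and 11.7% lower, so 27.6% passed in either direction. The median log2 fold change was 1.03 over the 7 receptor genes and 0.01 over all genes tested. Slamf1, Slamf7 and Slamf9 passed with a rise of 2-fold or more, as did 6.30% of all genes. With the replicate number as a block 6 of the 7 passed, Slamf8 (higher) and Cd84 (lower) among them, beside 37.2% of all genes. Without both replicate 1 libraries 5 of the 7 passed, beside 23.3% of all genes, and in limma on log2(TPM + 1) 4 of the 7, beside 20.4%. In bulk RNA a change in the number of cells that carry a transcript and a change in the RNA per cell cannot be told apart.

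**Figure D1:**
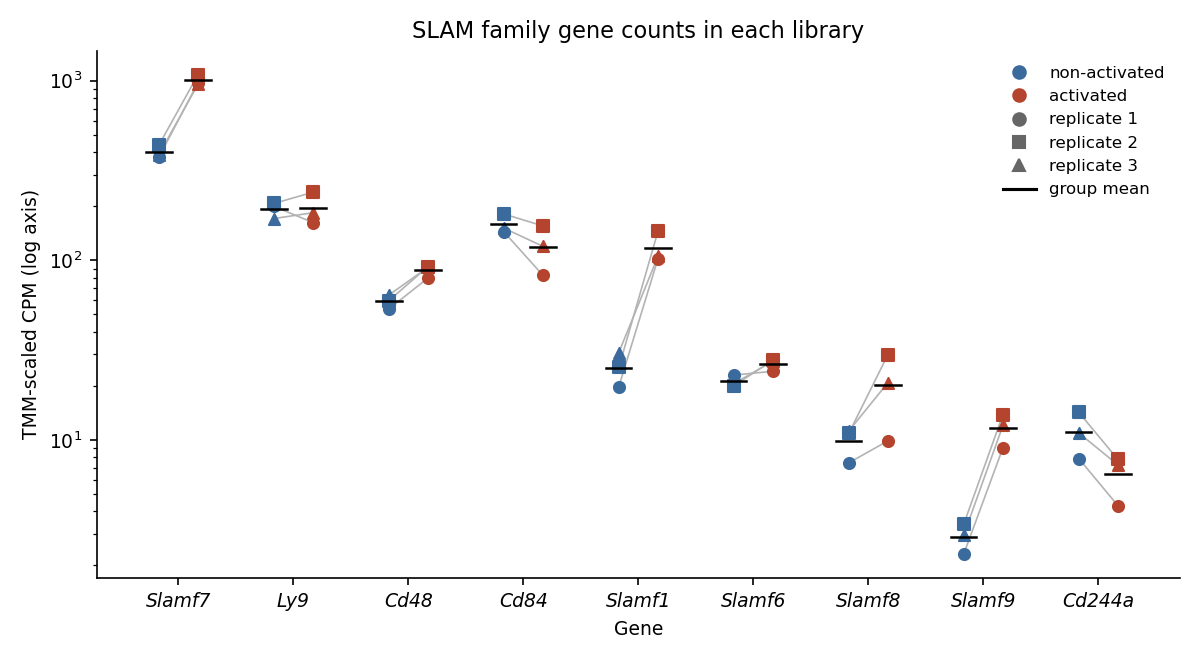
TMM-scaled CPM (log axis) of the 7 receptor genes and of Slamf6 and Cd244a in each library; symbols give the replicate number, grey lines join libraries that share it, and bars are group means (n = 3). Slamf1, Slamf7, Slamf9 and Cd48 have all 3 activated libraries above all 3 non-activated ones, while Slamf8, Cd84 and Ly9 overlap.

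Promoter sequences are shown for the 3 genes that rose by over 2-fold and for Slamf8, the receptor that passed only under some settings, since these are the members that moved most. Each is the stretch of 250 bases before the start that RefSeq's promoter table (GRCm38.p6) uses, 5′ to 3′ on the strand of the gene. Capitals mark matches to any of 5 motifs searched on both strands of the window of 300 bases (250 before and 50 after the start): AP-1 (TGANTCA), ISRE (by name), GAS (TTCNNNGAA), PU.1 (GAGGAAGT) and the kappaB consensus (by name). The Slamf7, Slamf8 and Slamf9 starts of the table lie inside the spans that RefSeq gives these genes. That of Slamf9 lies farthest inside, just past chr1:172475359 in a plus-strand gene whose span begins at chr1:172458569. Slamf1 is chr1:171766882-171767131 on the plus strand, Slamf7 chr1:171649000-171649249 on the minus strand, Slamf9 chr1:172475110-172475359 on the plus strand, and Slamf8 chr1:172590569-172590818 on the minus strand. The last line is the Slamf8 stretch of 30 bases that ends the window, chr1:172590519-172590548, shown for its kappaB match.
Slamf1: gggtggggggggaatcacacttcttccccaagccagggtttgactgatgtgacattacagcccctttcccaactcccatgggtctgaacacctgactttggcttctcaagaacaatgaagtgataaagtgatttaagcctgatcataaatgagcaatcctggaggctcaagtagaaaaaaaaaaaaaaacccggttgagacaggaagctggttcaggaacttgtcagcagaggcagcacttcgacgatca
Slamf7: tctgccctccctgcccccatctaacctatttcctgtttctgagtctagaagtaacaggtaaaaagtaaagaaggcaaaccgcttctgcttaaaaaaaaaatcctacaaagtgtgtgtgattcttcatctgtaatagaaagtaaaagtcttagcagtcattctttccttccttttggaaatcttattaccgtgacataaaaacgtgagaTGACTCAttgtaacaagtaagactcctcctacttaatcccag
Slamf9: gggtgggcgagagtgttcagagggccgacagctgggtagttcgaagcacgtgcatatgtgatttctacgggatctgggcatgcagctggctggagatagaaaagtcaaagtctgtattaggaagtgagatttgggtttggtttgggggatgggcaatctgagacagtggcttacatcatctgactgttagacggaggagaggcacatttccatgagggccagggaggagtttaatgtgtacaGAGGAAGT
Slamf8: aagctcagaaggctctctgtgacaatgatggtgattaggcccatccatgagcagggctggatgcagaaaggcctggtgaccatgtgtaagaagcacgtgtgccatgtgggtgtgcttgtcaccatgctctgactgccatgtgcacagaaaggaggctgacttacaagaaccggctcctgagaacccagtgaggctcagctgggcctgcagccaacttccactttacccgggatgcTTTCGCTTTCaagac
Slamf8 after the start: tcctccttctgaacatGGGACTTTCCagca

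The Slamf7 stretch holds an AP-1 match (TGACTCA) 42 bases before the start. The Slamf9 stretch ends in a PU.1 match (GAGGAAGT) that begins 8 bases before the start. The Slamf8 stretch holds an ISRE match on the other strand (TTTCGCTTTC) that begins 15 bases before the start. Past its start, the Slamf8 window also has an AP-1 match (TGAGTCA) at base 9 and the kappaB match (GGGACTTTCC) at base 36. In Slamf1, the gene with the highest fold change of the 7, none of the 5 motifs was found in this window, which says only that these letters are not there. The table holds promoters of 8 family genes, 6 of them members. AP-1 was found in 4 of the 8 (Slamf7, Slamf8, Cd84 and Cd244a) and in 7.81% of all 32851 promoters. The Cd84 and Cd244a matches lie 229 and 122 bases before the start, in genes with a negative fold change. The kappaB consensus was found in 1 of the 8 and 8.46% of all, ISRE in 1 and 3.44%, PU.1 in 1 and 3.20%, and GAS in none and 8.30%. A match describes the letters and is not a measured binding site.

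Slamf1 encodes SLAM (CD150), a self-binding receptor that gives the family its name. It was at 102, 145 and 105 CPM in activated replicates 1 to 3 and at 19.8, 25.3 and 30.7 CPM in the non-activated ones. The lowest activated library was more than 3 times the highest non-activated one. This gave a log2 fold change of 2.21 ± 0.19 (SE; 4.64-fold; edgeR adjusted p = 0.000114), and the ratio within the pairs of equal replicate number was 5.14, 5.73 and 3.43. Without both replicate 1 libraries it was 2.14 (edgeR adjusted p = 0.000172).

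Slamf7 encodes CRACC (CD319), a self-binding receptor known for its part in phagocytosis by macrophages. Its TPM was the highest of the 7 in every library. Its counts were at 976, 1080 and 954 in activated and 375, 438 and 388 CPM in non-activated replicates 1 to 3. The libraries of a group lay close together and the groups were far apart. The log2 fold change was 1.33 ± 0.10 (SE; 2.51-fold; edgeR adjusted p = 7.3e-05), with 2.61-, 2.47- and 2.46-fold within the 3 pairs. Without both replicate 1 libraries it was 1.28 (edgeR adjusted p = 0.000249). Mir7683 overlaps Slamf7 in the annotation, and reads of the overlap are not told apart.

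Slamf9 encodes a receptor with a short cytoplasmic tail, found mainly in myeloid cells. It had the lowest mean TPM of the 7 and was at 9.02, 13.8 and 12.03 in activated and 2.32, 3.40 and 2.96 CPM in non-activated replicates 1 to 3. These values rest on 820 and 215 counts summed over the 3 libraries of each group. The groups did not overlap, and the ratio was nearly the same in each pair, at 3.89, 4.06 and 4.07. The log2 fold change was 2.01 ± 0.22 (SE; 4.01-fold; edgeR adjusted p = 0.000376), a rise that 2.21% of the genes tested matched or exceeded. Without both replicate 1 libraries it was 2.00 (edgeR adjusted p = 0.000415). Gm7804 overlaps Slamf9 in the annotation, and reads of the overlap are not told apart.

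Cd48 encodes a lipid-anchored receptor without a cytoplasmic tail, the ligand of 2B4 and CD2. It was at 79.7, 92.3 and 91.5 in activated and 53.6, 59.6 and 64.0 CPM in non-activated replicates 1 to 3. The groups did not overlap, although the difference was smaller than for the other 3 genes that rose. Its log2 fold change was 0.57 ± 0.10 (SE; 1.49-fold; edgeR adjusted p = 0.00329), and without both replicate 1 libraries it was 0.55 (edgeR adjusted p = 0.00406). For the 4 genes that rose every activated library lay above every non-activated one, a pattern shown in that direction by 23.9% of all genes tested.

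Slamf8 encodes BLAME, a myeloid receptor known to restrain the phagosome oxidase. It was at 9.88, 29.8 and 20.8 in activated and 7.46, 10.9 and 11.2 CPM in non-activated replicates 1 to 3. Activated replicate 1 lay within the non-activated range and the other 2 activated libraries lay above it. Its log2 fold change was 1.03 ± 0.36 (SE; edgeR adjusted p = 0.0630), which missed the threshold. With the replicate number as a block the difference was 0.94 and passed (edgeR adjusted p = 0.0044), although no label says that the numbers mark pairs. It also passed without activated replicate 1 alone (1.34, edgeR adjusted p = 0.0029) and without both replicate 1 libraries (1.18, edgeR adjusted p = 0.0031). Each activated library was above its pair, by 1.33-, 2.74- and 1.86-fold.

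Cd84 encodes a self-binding receptor with tyrosine motifs. It was at 82.5, 155 and 120 in activated and 144, 181 and 151 CPM in non-activated replicates 1 to 3. The groups overlapped, since activated replicate 2 lay within the non-activated range, while each activated library was below its pair, at 0.57, 0.86 and 0.79 of it. A log2 fold change of -0.41 ± 0.20 (SE; edgeR adjusted p = 0.171) resulted. With the replicate block it was -0.45 and passed (edgeR adjusted p = 0.0136), as it did without activated replicate 2 (-0.67, edgeR adjusted p = 0.0259), and without both replicate 1 libraries it was -0.29 and did not (edgeR adjusted p = 0.190). Gm51686 overlaps Cd84 in the annotation, and reads of the overlap are not told apart.

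Ly9 encodes CD229, another self-binding receptor with tyrosine motifs. It was at 162, 239 and 184 in activated and 200, 207 and 171 CPM in non-activated replicates 1 to 3. The activated libraries spanned the whole non-activated range. Its log2 fold change was 0.02 ± 0.15 (SE; edgeR adjusted p = 0.938), and its sign turned under several alternative settings. Without both replicate 1 libraries it was 0.15 (edgeR adjusted p = 0.525). Activated replicate 1 was the lowest activated library for 6 of the 7 receptors, all but Slamf7. In the same library Itgax, which encodes CD11c, stood at 198 CPM against 442 and 328 CPM in the other activated libraries, and its part in these values was not tested.

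Of the other family genes, Slamf6, which encodes a self-binding receptor known as Ly108, was at 24.1, 27.8 and 27.5 in activated and 23.0, 20.0 and 20.6 CPM in non-activated replicates 1 to 3. The groups were adjacent and did not overlap. Its log2 fold change of 0.32 ± 0.10 (SE) lay just past the threshold (edgeR adjusted p = 0.0455). That call was lost with DESeq2, with RLE factors, without a count filter and in limma on TPM. It was also lost in 5 of 6 edgeR fits that left out 1 library (adjusted p up to 0.151). The call held with the replicate block (0.32, edgeR adjusted p = 0.0392) and without both replicate 1 libraries (0.43, edgeR adjusted p = 0.0228). Cd244a, which encodes 2B4, the receptor of CD48, was at 4.31, 7.79 and 7.26 in activated and 7.87, 14.2 and 10.9 CPM in non-activated replicates 1 to 3. All activated libraries lay below all non-activated ones, as for 20.7% of the genes tested, and the pairs gave ratios of 0.55, 0.55 and 0.66. The log2 fold change of -0.77 ± 0.28 (SE) missed the threshold (edgeR adjusted p = 0.0697) and passed with the replicate block (edgeR adjusted p = 0.0024) and without both replicate 1 libraries (edgeR adjusted p = 0.0206). Cd2, the other partner of CD48 in the mouse and a T-cell marker, had 52 counts in the activated and 1 count in the non-activated libraries and was too low to test.

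Many of these receptors are also carried by T cells, which shared the cultures. Of 17 T-cell markers, 9 could be tested, of which Lck and Zap70 were higher and Il7r lower in activated cells. Zap70 was at 4.27, 0.64 and 0.98 CPM in activated replicates 1 to 3, and its call was lost in 3 of 6 fits that left out 1 library: without activated replicate 1 (log2 fold change 1.65 against 2.95; edgeR adjusted p = 0.113) and without non-activated replicates 2 or 3. The Il7r call was lost in 4 of those 6 fits and without both replicate 1 libraries (edgeR adjusted p = 0.0673). Without Il7r, Trac and Trbc2 the list summed to 35.9 to 54.9 in activated and 28.6 to 57.6 CPM in non-activated libraries. These sums overlapped, and Cd28 had the highest mean of the summed genes in both groups. Its values were 9.95, 22.6 and 19.2 in activated and 17.2, 42.3 and 38.4 CPM in non-activated replicates 1 to 3. Of the 14 summed genes, Lck, Lat, Zap70, Cd2, Trbc1 and Cd3e had every activated library above every non-activated one. Among all genes tested 23.9% did, but Cd2, Trbc1 and Cd3e were too low to be tested. The rest of the summed genes overlapped between groups. Cd3e was at 1.89, 0.25 and 0.41 in activated and 0.15, 0.17 and 0.24 CPM in non-activated replicates 1 to 3. It was thus near 0 in every library, although each activated library lay above each non-activated one. The part of T-cell RNA in the receptor values was not tested. B-cell markers summed to 3.10 to 6.76 in activated and 1.72 to 3.81 CPM in non-activated libraries. NK-cell markers summed to 5.29 to 14.8 CPM and 12.05 to 24.4 CPM, nearly all of it Klrk1, with Klrb1c at 0 in every library. Neutrophil markers stayed at or below 0.57 CPM in sum. Mast cell and basophil markers summed to 124 to 162 in activated and 70.2 to 106 CPM in non-activated libraries. Hdc, a histamine-forming enzyme, made up most of it and was higher in activated cells (log2 fold change 0.92 ± 0.18 SE; edgeR adjusted p = 0.0060), while Gata2, a transcription factor, was lower (-1.71 ± 0.19 SE; edgeR adjusted p = 0.000363). The defining Fcer1a and Cpa3 stayed at or below 0.19 CPM in every library. Plasmacytoid dendritic cell markers summed to 261 to 305 and 242 to 299 CPM, with Siglech at or below 0.098 CPM. Among the dendritic cell markers, Ccr7, Cd86, Irf4 and Zbtb46 were higher in activated cells and the other 6 of the 10 did not pass.

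On the TPM scale, which allows genes to be ranked, Slamf7 stood first in both groups, at 551 ± 59.8 TPM in activated and 268 ± 25.5 TPM in non-activated cells (SD, n = 3). In activated cells Ly9 (130 ± 27.6 TPM), Cd48 (128 ± 13.7 TPM), Cd84 (82.6 ± 27.8 TPM) and Slamf1 (67.4 ± 13.7 TPM) followed, and Slamf8 (20.1 ± 10.0 TPM) and Slamf9 (15.1 ± 3.34 TPM) were lowest. The ranges of Ly9 and Cd48, of Cd84 and Slamf1, and of Slamf8 and Slamf9 overlapped there, so the order within those pairs is not resolved. In non-activated cells the order was Slamf7, Ly9 (129 ± 9.83 TPM), Cd84 (108 ± 16.5 TPM), Cd48 (87.1 ± 11.5 TPM), Slamf1 (14.4 ± 3.51 TPM), Slamf8 (9.91 ± 2.44 TPM) and Slamf9 (3.79 ± 0.79 TPM). Ly9 overlapped with Cd84, Cd84 with Cd48, and Slamf1 with Slamf8. Slamf1 had rank 5 in both groups, with a range that overlapped Slamf8 in non-activated cells and Cd84 in activated cells.

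Summed over the 7 genes, receptor RNA was at 853, 1147 and 982 TPM in activated and 560, 674 and 624 TPM in non-activated replicates 1 to 3. The sum was thus 1.60 times as high in activated cells with no overlap (exact two-sided permutation test, p = 0.1, the smallest that 3 against 3 libraries can give). The make-up of that pool differed as well. Slamf7 made up 59.5%, 54.0% and 53.6% of it in activated and 43.8%, 43.9% and 42.0% in non-activated replicates 1 to 3. Slamf1 had a mean share of 2.32% in non-activated against 6.75% in activated libraries, and Slamf9 of 0.607% against 1.51%. Cd84 had a mean share of 17.3% in non-activated against 8.15% in activated libraries, and Ly9 of 20.9% against 12.9%. For these 5 genes the shares of the groups did not overlap (exact permutation p = 0.1 each, 0.14 after Benjamini-Hochberg adjustment over the 7 shares). The shares of Cd48, 14.1% and 13.0%, and of Slamf8, 1.59% and 1.96%, overlapped (exact permutation p = 0.5 each). A share depends on the other genes of the sum, so the lower share of Ly9 stands beside a level of 129 and 130 TPM.

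**Figure D2:**
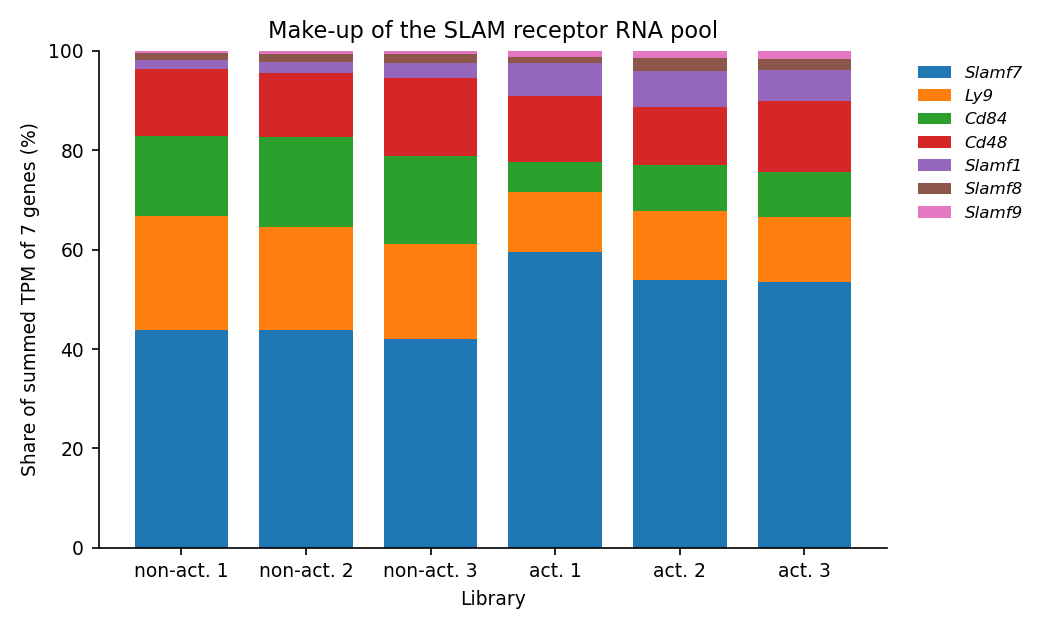
Share (%) of the summed TPM of the 7 receptor genes taken by each gene in the 6 libraries, non-activated on the left and activated on the right. Slamf7 takes 42.0% to 43.9% in non-activated and 53.6% to 59.5% in activated libraries, while the bands of Cd84 and Ly9 are narrower in activated ones.

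The tables list for each gene a length that is the mean over its isoforms weighted by their estimated use, so a shift in this length reports a shift in isoform mix. For Slamf7, with 5 isoforms listed, it was 2924, 2725 and 2938 nt in activated and 2341, 2362 and 2475 nt in non-activated replicates 1 to 3. The activated libraries were all longer, by 470 nt or 19.6% in the mean (exact permutation p = 0.1, the smallest possible; 0.4 after Benjamini-Hochberg adjustment over the family genes). In limma on log2 length over 10718 genes with more than 1 isoform the unadjusted p was 0.0017 and the adjusted p 0.424, so it did not pass among all genes. In that test 0.0467% of genes passed, none of them a receptor gene, and Slamf7 alone of the receptors had an unadjusted p under 0.05, as 765 genes did. Counting Slamf7 itself, 925 of the 10718 genes differed by as much as Slamf7 or more. Among 2623 genes with a mean of at least 50 TPM, 21 did so, Slamf7 included (0.801%), and in 10 of those the groups were apart. Because TPM divides by this length, the Slamf7 fold was 2.05 on TPM and 2.51 on counts. Slamf1 differed by -51.9 nt, from 2786 to 2734 nt, also without overlap. Groups did not overlap in length for 12.8% of all genes. The lengths of Slamf8, Cd48, Cd84 and Ly9 overlapped between groups, and Slamf9 has 1 isoform listed.

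**Figure D3:**
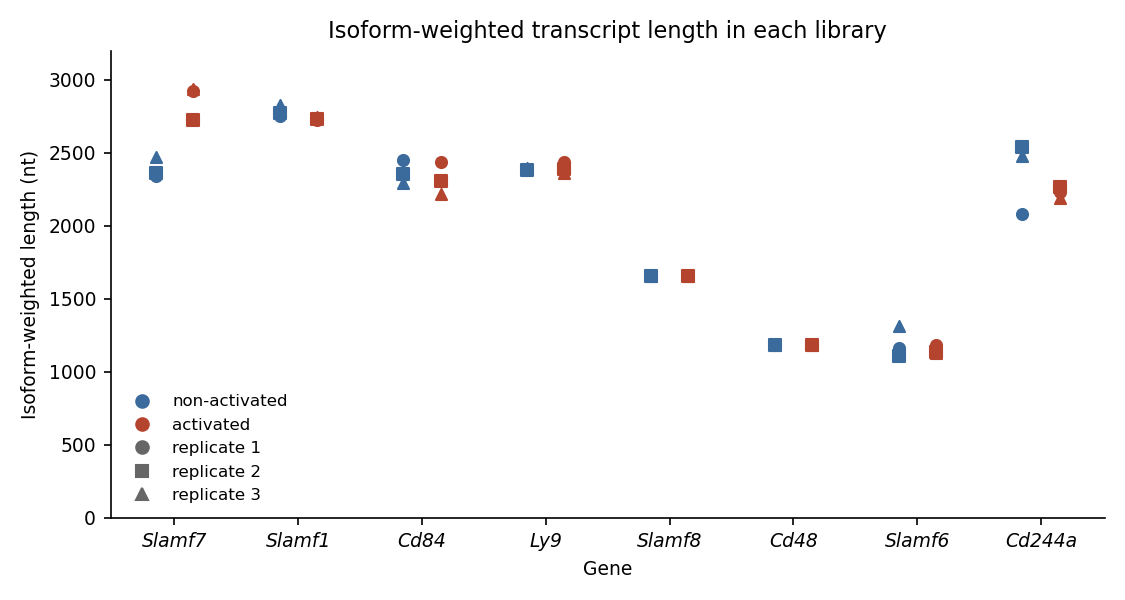
Isoform-weighted transcript length (nt) of the family genes in each library; symbols give the replicate number and colours the group. Slamf7 lies at 2725 to 2938 nt in activated and 2341 to 2475 nt in non-activated libraries, and the other receptor genes lie close together or overlap.

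The 7 genes lie on chromosome 1 in 2 clusters (RefSeq, GRCm38.p6). Ly9 (chr1:171588613-171607410), Slamf7 (chr1:171632403-171653037), Cd48 (chr1:171681245-171705258), Slamf1 (chr1:171767131-171801184) and Cd84 (chr1:171839697-171890718) span 302 kb. Slamf9 (chr1:172458569-172478421) and Slamf8 (chr1:172581377-172590873) span 132 kb, and 568 kb separate the clusters. In the first cluster Slamf7, Cd48 and Slamf1, which rose, lay side by side between Ly9 and Cd84, which did not pass. Of 21 tested neighbours that are not family genes, 3 passed (14.3%, beside 27.6% of all genes), all higher, and all lay by the Slamf9 and Slamf8 cluster. Igsf9, a neuronal adhesion molecule of the immunoglobulin superfamily that lies between Slamf9 and Slamf8, was at 51.8 ± 10.2 in activated against 5.80 ± 2.19 CPM in non-activated cells (SD, n = 3; 8.93-fold; edgeR adjusted p = 9.1e-05). Tagln2, an actin-binding protein between the same genes, was at 1138 ± 25.0 and 653 ± 33.7 CPM (1.74-fold; edgeR adjusted p = 0.000463). Igsf8, a partner of tetraspanins on the Slamf1 side of Slamf9, was at 261 ± 50.01 and 70.1 ± 11.3 CPM (3.72-fold; edgeR adjusted p = 0.00013). Of the 8 tested neighbours of the first cluster 0 passed with edgeR and 0 with DESeq2, while Alyref2 and Pex19 were higher at an unadjusted p under 0.05. Whether neighbours share regulation was not tested.

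**Figure D4:**
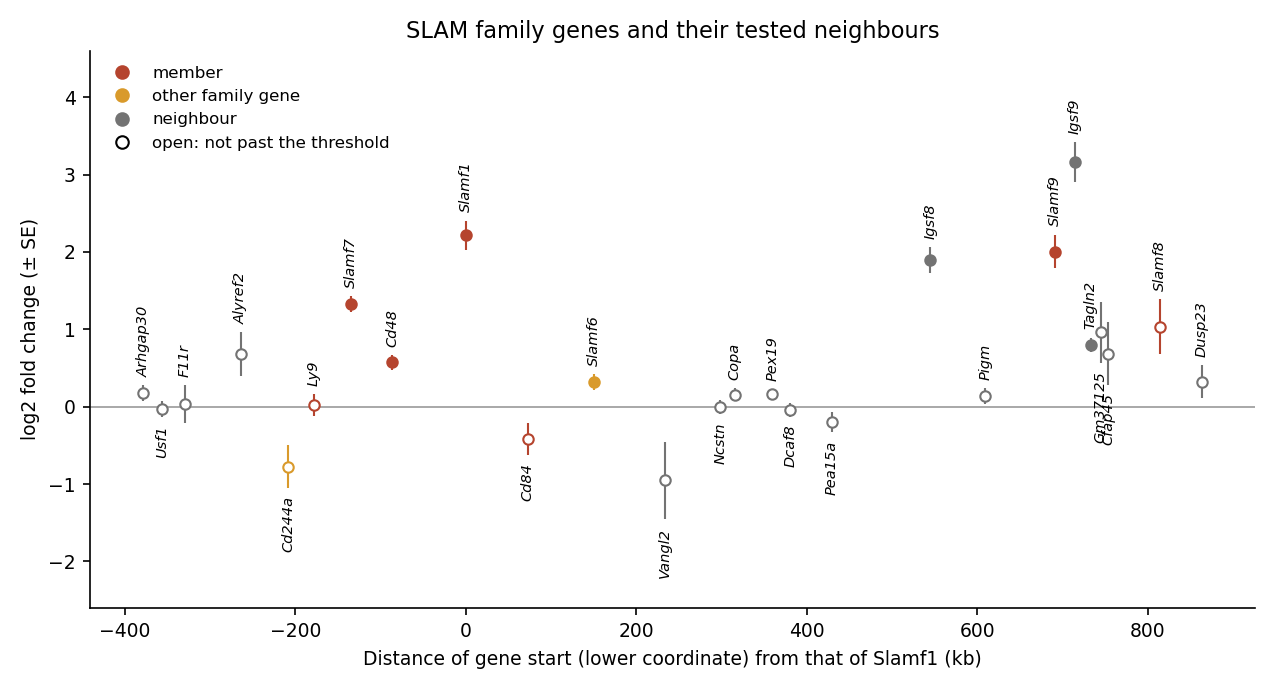
Log2 fold change (activated over non-activated, ± SE) of the receptor genes, Slamf6, Cd244a and their tested neighbours, placed by distance from the Slamf1 start (kb). Open symbols did not pass the threshold. The neighbours Aim2, Ifi206, Ifi214 and Ifi213 lie farther to the right, did not pass and are not drawn. Slamf9, Igsf9 and Tagln2 form a run with filled symbols on the right, with Igsf8 filled to their left beyond Pigm, which is open, and near Slamf1 the filled symbols are family genes.

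The genes through which SLAM receptors signal were described from a list of 43, of which 40 could be tested. Of these, 9 were higher and 8 lower in activated cells, with a median log2 fold change of -0.06; 17 of 40 is 42.5%, beside 27.6% of all genes.

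Among the adaptors, EAT-2 and its relative fell while SAP was barely detected. Sh2d1b1, which encodes EAT-2, the SAP-family adaptor of innate cells, was at 1.41 ± 0.12 in activated against 6.32 ± 1.74 CPM in non-activated cells (SD, n = 3). The log2 fold change was -2.17 ± 0.27 (SE; edgeR adjusted p = 0.000679), and the groups did not overlap. Sh2d1b2, which encodes the near-identical ERT, was at 0.16 ± 0.07 and 0.59 ± 0.04 CPM (edgeR adjusted p = 0.0237), on 11.4 and 44.0 counts in all, and the split of reads between the pair is uncertain. That call was lost in 5 of 6 fits that left out 1 library. Sh2d1a, which encodes SAP, the adaptor of T cells, had 15.1 counts in activated and 2 counts in non-activated libraries and could not be tested.

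Among 7 tested Src-family kinases and their regulator Csk, 4 were higher and 1 was lower. Fyn, the kinase that SAP recruits, was at 45.1 ± 4.16 in activated against 125 ± 10.2 CPM in non-activated cells (SD, n = 3; log2 fold change -1.47 ± 0.10 SE; edgeR adjusted p = 3.9e-05). Lck, a kinase best known in T cells, was at 4.37 ± 0.69 and 0.999 ± 0.279 CPM (4.37-fold; edgeR adjusted p = 0.0011). Lck is itself one of the T-cell markers above, and the part of T-cell RNA in its rise was not tested. Fgr rose 3.96-fold (edgeR adjusted p = 0.0044) and Yes1 2.47-fold (edgeR adjusted p = 0.0027), both from low levels of 1.06 and 2.69 CPM. Src rose 1.34-fold, from 117 ± 12.8 to 157 ± 17.2 CPM (edgeR adjusted p = 0.0232), a call that 4 of 6 fits without 1 library lost. Lyn did not pass, nor did Csk, the gene with the highest TPM of this list in the mean of all 6 libraries (in activated cells the mean TPM of Src was above that of Csk), at 93.5 ± 5.17 and 90.3 ± 3.70 CPM.

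Of 8 phosphatases and inhibitory proteins, 2 rose and 1 fell. Ptpn6, which encodes SHP-1, was at 131 ± 6.92 in activated against 63.2 ± 2.95 CPM in non-activated cells (SD, n = 3; 2.08-fold; edgeR adjusted p = 6.1e-05). Ptpn11, which encodes SHP-2, was at 223 ± 4.61 and 133 ± 10.1 CPM (1.68-fold; edgeR adjusted p = 0.000338). Inpp5d, which encodes the lipid phosphatase SHIP-1, was at 92.0 ± 11.5 and 131 ± 10.9 CPM (log2 fold change -0.51 ± 0.11 SE; edgeR adjusted p = 0.0091); it did not pass on TPM (limma adjusted p up to 0.236). Ptprc, which encodes CD45 and had the highest TPM of this list, was at 414 ± 11.4 and 483 ± 17 CPM and missed the threshold (edgeR adjusted p = 0.0733), while it passed with the replicate block (edgeR adjusted p = 0.036).

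Among 13 downstream effectors 2 rose and 3 fell. Plcg2, a phospholipase C of myeloid and B cells, rose 2.30-fold from 83.1 ± 6.34 to 191 ± 15.0 CPM (SD, n = 3; edgeR adjusted p = 6.85e-05). Hcls1, an actin regulator of blood cells, rose 1.67-fold from 388 ± 17.8 to 648 ± 29.5 CPM (edgeR adjusted p = 0.000541). Itgam, the alpha chain of Mac-1, a partner of SLAMF7 in phagocytosis, was at 242 ± 38.7 in activated against 382 ± 32.6 CPM in non-activated cells (edgeR adjusted p = 0.0061). Tyrobp, which encodes the signalling chain DAP12, was at 22.1 ± 3.40 and 34.6 ± 7.55 CPM (edgeR adjusted p = 0.0238), and Syk, the kinase it recruits, at 717 ± 43.4 and 924 ± 10.3 CPM (edgeR adjusted p = 0.0191). Both of these calls were lost in 3 of 6 fits that left out 1 library. Fcer1g, which encodes the Fc receptor gamma chain and had the highest TPM of the effectors, was at 271 ± 35.2 and 249 ± 33.7 CPM and did not pass.

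The phagosome list joins the class III phosphatidylinositol kinase complex, to which SLAM binds, and the NADPH oxidase that SLAM and BLAME are known to affect. Of its 10 genes 1 fell and 1 rose. Uvrag, a subunit of the kinase complex, was at 60.6 ± 4.16 in activated against 115 ± 12.1 CPM in non-activated cells (SD, n = 3; log2 fold change -0.92 ± 0.10 SE; edgeR adjusted p = 0.000364). Its partners Becn1, Pik3c3 and Pik3r4 did not pass, with log2 fold changes of -0.06, -0.08 and 0.02. Cybb, the catalytic oxidase subunit, was at 1150.5 ± 239 and 733 ± 188 CPM and lay at the threshold (1.57-fold; edgeR adjusted p = 0.0484), which 4 of 6 fits without 1 library lost. Cyba, the oxidase subunit with the highest TPM, was at 378 ± 88.0 and 393 ± 42.6 CPM and did not pass.

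**Figure D5:**
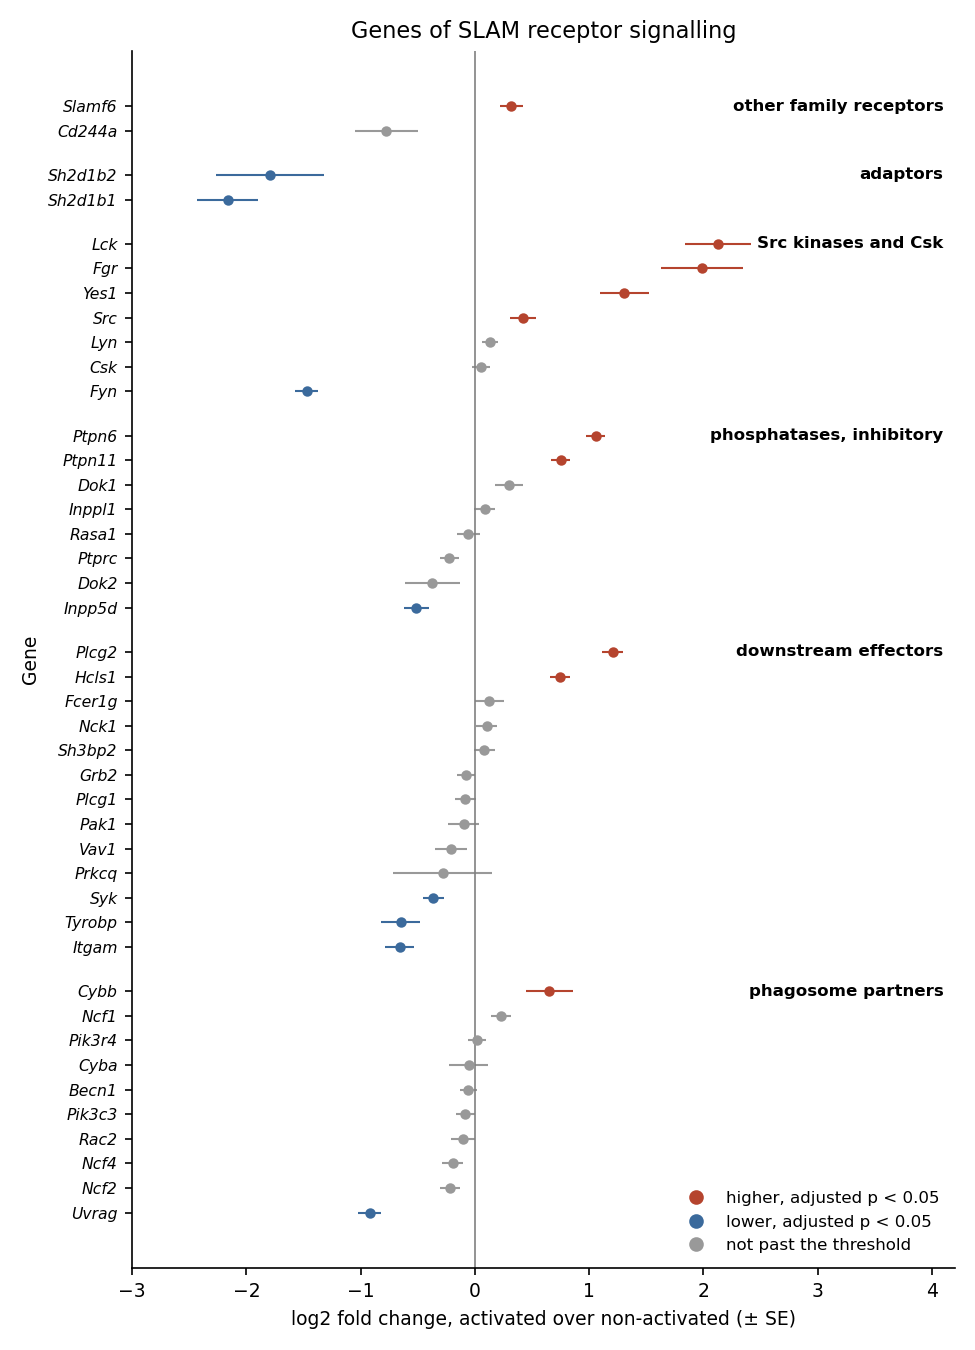
Log2 fold change (activated over non-activated, ± SE, n = 3 libraries a group) of the other family genes and of the tested signalling genes, by role. Sh2d1b1, Sh2d1b2, Fyn and Uvrag lie on the lower side and Lck, Fgr, Plcg2 and Ptpn6 on the higher side.

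For each of the 4 receptors that rose, the 3 genes with the most similar pattern were taken by Pearson correlation of log2 CPM over the 6 libraries, as a description; the libraries fall into 2 groups, so most of each correlation comes from the group difference. For Slamf1 these were Gfpt2 (0.9996), an enzyme of the hexosamine pathway, Dact3 (0.9972), a Wnt pathway regulator, and Cdk6 (0.9965), a cell cycle kinase. Gfpt2 was at 13.6, 20.5 and 13.6 in activated and 2.09, 2.60 and 3.44 CPM in non-activated replicates 1 to 3, with the same high library and the same order of non-activated libraries as Slamf1. For Slamf7 they were Ppp1r18 (0.9993), Acp6 (0.9990) and Gabbr1 (0.9987). For Slamf9 they were P3h1 (0.9992), Pofut1 (0.9988) and Schip1 (0.9979), and for Cd48 C1s1 (0.9986), Jarid2 (0.9979) and Wnt6 (0.9977). All 12 were higher in activated cells and passed the threshold. They were chosen for likeness to receptors that passed, so this adds no support.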

How the data were processed

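Libraries for RNA-seq used 200 ng of total RNA and single reads of 60 nt, per the labels' protocols, which do not state that strand was kept. Per the file headers, the authors deposited gene tables in the layout of RSEM, with an expected count, TPM, FPKM and an isoform-weighted length for each gene. The submitters' processing notes name GRCm38, CASAVA, bcl2fastq, FastQC, cutadapt and limma; for the aligner, nothing is given in the sources used here. Gene IDs gave a symbol for 41597 of 41813 genes, and positions and promoters come from RefSeq on GRCm38.p6. Protein sequences were not used here.

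Rounded expected counts were tested with edgeR (version 4.0.16, R 4.3.3) after filterByExpr and TMM, by glmQLFit and glmQLFTest with the group alone in the model and Benjamini-Hochberg adjustment over 13946 genes. CPM is TMM-scaled, and the SE is the log2 fold change over the root of F. Alternatives were DESeq2 1.42.0, RLE factors, no filter, the replicate number as a block, limma 3.58.1 on log2(TPM + 1) for genes with TPM of at least 1 in 3 libraries, and leaving out each library. Chosen after seeing the data were the fit without both replicate 1 libraries and limma on log2 length. Deposited FPKM was used only for the shares, where it must give the same values as TPM. The scripts were tested on simulated data. Members and gene lists were chosen with earlier results of these data known; 1 listed signalling gene is not reported here and was left out of the list counts. Named genes were all 9 family genes, the adaptors and binding partners, up to 6 genes past the threshold and the one with the highest TPM per list, the 3 most alike genes per member and neighbours past the threshold. For the paired alternative, deviations from group means were compared. They correlated at 0.398, 0.313 and 0.187 between libraries of equal replicate number, and other combinations gave -0.315 to 0.04. Deviations cancel out within a group, so positive values for equal numbers go with negative ones elsewhere. No label explains the numbers, and whether they mark true pairs was not tested. Libraries of a group differed by far more than counting noise (chi-square per degree of freedom of at least 13.96). PCR copies are not told apart in counts.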

Additional observations from a re-analysis of the deposited data

How the results depend on the processing

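Slamf1, Slamf7 and Slamf9 kept their direction and their call in all 14 settings tried; Cd48 lost its call in 1, limma on log2(TPM + 1) without a filter (0.56). Receptor genes past the threshold numbered 3 to 6, and 4 to 5 without 1 library. Slamf8 passed with DESeq2 (1.014), no filter (1.00), the replicate block (0.94) and without both replicate 1 libraries (1.18), and ranged from 0.62 to 1.34 without 1 library. Cd84 passed without a filter (-0.44) and with the replicate block (-0.45), and ranged from -0.67 (without activated replicate 2, where it also passed) to -0.23 without 1 library. Ly9 turned sign without a filter (-0.0076) and on TPM (-0.0112 with a pseudocount of 1, filtered or not, and -0.0114 with 0.1), and ranged from -0.17 to 0.12 without 1 library. Over all genes 3848 passed, against 5184 with the replicate block, 2516 with a TPM pseudocount of 0.1, 1882 on TPM without a filter and 2679 to 3629 without 1 library. Signalling genes past the threshold numbered 17, against 22 with the replicate block, 11 on TPM without a filter and 12 to 17 without 1 library; Fgr (limma adjusted p = 0.0763), Yes1 (0.0888) and Uvrag (0.0692) were lost on TPM without a filter alone. Some log2 fold changes of genes that did not pass turned sign: without 1 library Csk ranged from -0.0095 to 0.072, Pik3r4 from -0.042 to 0.039 and Cyba from -0.19 to 0.11. Without both replicate 1 libraries Nck1 was -0.017 and Cyba 0.066, and Pik3r4 was -0.0072 without a filter, -0.0516 on TPM with a pseudocount of 1, filtered or not, and -0.0544 with 0.1. Without 1 library the length difference ranged across 0 for Slamf8 (-0.55 to 0.615 nt), Cd84 (-103 to 6.38 nt), Ly9 (-10.3 to 28 nt) and Slamf6 (-89.3 to 12.2 nt), while Slamf7 stayed between 432 and 539 nt. The causes of these shifts were not tested. The shares changed no order of the groups with all 9 family genes in the sum. Within a library FPKM and TPM differ by a constant factor, so shares on FPKM are the same and are no check. With 3 libraries a group, no exact test can go below 0.1, and Sh2d1a and Cd2 were too low to test.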
